A study of Mus musculus with 8 samples.

Results

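The genes described are 79 cytosolic ribosomal protein genes expressed in T cells of the mouse pancreas. They were selected on gene symbol (Rpl or Rps followed by a digit, with Rplp0, Rplp1, Rplp2 and Rpsa, without S6 kinases, Rps27l and pseudogene symbols). They were also chosen by level, an average of at least 300 CPM (a gene's count per 1000000 counts) in T cells over the 8 libraries. Of 32285 measured features, 85 symbols matched and 79 passed the level threshold, 48 of the large and 31 of the small subunit. The levels that chose the members are given as a description. Closest to the threshold were Rpl29 inside it, at 492 CPM, and Rps27rt outside it, at 144 CPM.

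All animals were female NOD mice, per the labels, a strain that develops autoimmune diabetes spontaneously. The label age was 3 to 4 months, and 3 to 5 months in the treatment protocol. CD45+ CD3+ TCRβ+ cells were sorted from dissociated pancreas, frozen and made into 3′ single-cell libraries that count unique molecular identifiers (UMIs), 1 per captured transcript. One library was made from mice in active diabetes, with glucose over 600 mg/dl in blood, and 1 from mice at onset, at 250 mg/dl. The other 6 came from new-onset mice (200 to 300 mg/dl) given daily PPCA or its vehicle, with 1 library of each on days 2, 3 and 4. PPCA pairs an inhibitor of MDM2, the protein that restrains p53 (nutlin-3, 50 mg/kg), with an inhibitor of WEE1, a checkpoint kinase (MK-1775, 25 mg/kg). Its solvent, the vehicle, held ethanol, Tween 20 and PEG300. The vehicle and PPCA groups had 3 libraries each. The number of mice per library was not given in the sources used here, so the spread between libraries may be partly technical.

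Ribosomal proteins join ribosomal RNA to form the small subunit, which reads the mRNA, and the large subunit, which makes the peptide bond. Their mRNAs begin with a pyrimidine tract, the 5′ terminal oligopyrimidine (TOP) motif, through which mTOR signalling and LARP1 set their translation together. In T cells the supply of ribosomes rises with activation, and a few ribosomal proteins, RPL5 and RPL11 foremost, bind and inhibit MDM2 when ribosome assembly fails.

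The DNA around the annotated start is shown for 5 members, since these stand at opposite ends of the variation between libraries described further on. Rpl5 and Rpl13a were highest in the active and vehicle day 3 libraries, Rpl35 and Rps27 in the PPCA day 4 library, and Rpl27 varied least. Each stretch runs 5′ to 3′ on the gene's strand from 60 bases before the RefSeq start to 15 bases from it (GRCm38.p6), with the longest pyrimidine run near the start in capitals. The positions are chr5:107900468-107900542 (+ strand) for Rpl5, chr7:45128731-45128805 (− strand) for Rpl13a, chr2:39005117-39005191 (− strand) for Rpl35, chr3:90213634-90213708 (− strand) for Rps27 and chr11:101442185-101442259 (+ strand) for Rpl27.
Rpl5: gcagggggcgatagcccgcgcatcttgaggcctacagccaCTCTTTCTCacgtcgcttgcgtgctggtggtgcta
Rpl13a: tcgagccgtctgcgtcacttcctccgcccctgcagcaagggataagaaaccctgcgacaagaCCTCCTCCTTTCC
Rpl35: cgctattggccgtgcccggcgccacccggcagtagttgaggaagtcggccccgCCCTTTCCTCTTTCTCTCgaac
Rps27: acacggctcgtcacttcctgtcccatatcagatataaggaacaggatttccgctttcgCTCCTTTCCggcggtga
Rpl27: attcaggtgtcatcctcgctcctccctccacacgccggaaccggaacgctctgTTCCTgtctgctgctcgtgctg

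The capitals mark runs of 9 pyrimidines for Rpl5 and Rps27, 18 for Rpl35 and 5 for Rpl27, and Rpl13a has a run of 14 whose last base lies outside the stretch. Of the 79 members, 59 matched a RefSeq promoter entry. Among these 59, 72.9% had a run of at least 8 pyrimidines (C or T, on the gene's strand) within 30 bases of a start, and 30.5% of all 27025 genes in the table had one. The median longest run was 10 bases in the members and 6 in all genes. The ETS-type motif CCGGAAG, on either strand between 250 bases before and 50 after the start, was in 40.7% of the members and 9.93% of all genes. AAGATGGC, the core of a YY1 motif, was in 8.47% against 3.19%, and the TATA motif TATAAA in 1.69% against 2.51%. None of these 3 motifs contains another. A match is a description of letters and not a binding site.

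The 8 libraries held 80470 cell barcodes, of which 70623 were kept as T cells, 6184 to 11559 per library. Summed T cell counts ran from 33557317 to 57512105 UMIs per library. Median depth was highest in the active library, at 6465 UMIs per T cell, and lowest in the PPCA day 4 library, at 3854. The libraries shared 7 to 31 cell barcodes per pair, at most 0.372% of the smaller library. Xist, a transcript of the inactive X chromosome, was at 418 to 622 CPM in 4 libraries (active, onset, PPCA day 2 and vehicle day 4) and at 0.328 to 0.734 CPM in the other 4, which goes against the label of female mice. Summed markers of other cell types in T cells stayed low, at 6.91 to 15.2 CPM for 4 B cell genes, 120 to 149 CPM for 5 myeloid genes and 10.7 to 131 CPM for 12 pancreas genes. Early response genes (8 genes) ranged from 782 to 5991 CPM and 4 erythroid genes from 0.125 to 70.7 CPM, the latter highest in the active library.

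The 79 genes took a large part of what a T cell library counted, as the plot of shares by gate shows. Of all T cell UMIs, their share was 33.6% in the active and 32.9% in the onset library. It was 32.7%, 36.1% and 35.2% in vehicle on days 2, 3 and 4, and 31.96%, 35.9% and 36.6% in PPCA. The mean was 34.4% ± 1.78 (SD, n = 8 libraries). Both day 2 libraries and both disease-stage libraries lay below all 4 libraries of days 3 and 4, and the treatment arms overlapped. Cells within a library differed more than libraries did: in the PPCA day 4 library the middle of the cells, from the lower to the upper quartile, ran from 30.7% to 41.1%.

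**Figure D1:**
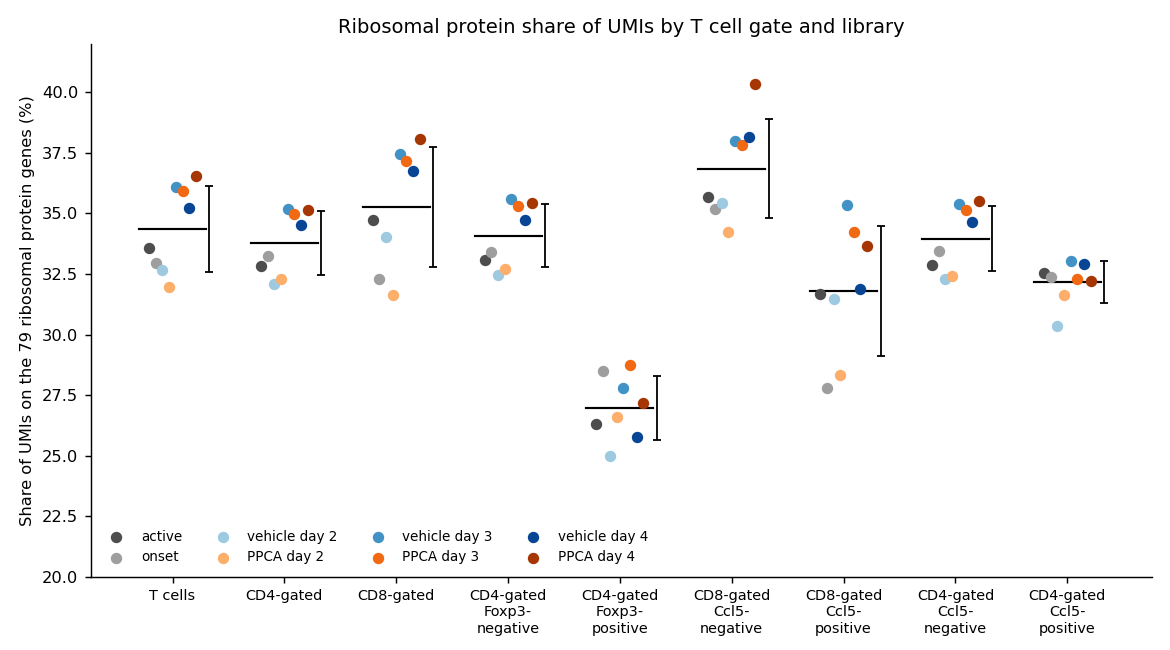
Share of UMIs on the 79 ribosomal protein genes (y axis, %, not starting at 0) in each T cell gate (x axis), with 1 point per library, the mean as a line and the SD over 8 libraries as a bar. Foxp3-positive cells sit between 25.0% and 28.8%, below every other point of their CD4 comparison group.

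Levels of single members differed over a range of more than an order of magnitude. The 3′ counts are per captured transcript, so levels of different genes are set side by side as UMIs without division by length. The most abundant was Rps29, a small zinc-binding protein of the small subunit head, at a lowest, median and highest of 10933, 12854 and 16184 CPM over the 8 libraries. Rps27 (7615, 9906 and 14466 CPM), Rps24 (8542, 9509 and 11056 CPM) and Rpl13 (6942, 7456 and 8023 CPM) followed. Rplp1, an acidic stalk protein that recruits elongation factors, was at 5734, 7056 and 8407 CPM, and Rps28 at 5323, 6834 and 9641 CPM. The ranges of neighbours in this order overlapped, except that Rps24 stayed above Rpl13 throughout. The least abundant members were Rpl29 (340, 515 and 684 CPM), Rpl36al (841, 890 and 922 CPM), Rpl31 (815, 1049 and 1350 CPM), Rpl7a (1031, 1120 and 1362 CPM), Rpl22l1 (903, 1354 and 1481 CPM) and Rpl4 (1048, 1329 and 1792 CPM). Only Rpl29 among these 6 had a range apart from that of its neighbour in the order.

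Reads of many members can match other annotated genes, so single levels carry that uncertainty. In the last 200 bases of their transcripts (GENCODE M21), 19 members shared no stretch of 50 bases with another annotated gene, and all the others shared some. For 40 members at least 50% of such stretches were shared, among them Rps15, Rpl5, Rpl13a and Rpl23a, whereas Rpl12, Rpl11, Rpl23, Rpl37a and Rps20 shared none. The share of shared stretches and the spread of a member over libraries had a Spearman correlation of 0.13 across the 79 genes, as a description.

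Paralogs outside the member list were far lower than their partners. Rps27l, a p53-responsive relative of Rps27, averaged 96.7 CPM against 10239 CPM for Rps27. Rpl7l1 averaged 56.1 CPM against 2618 CPM for Rpl7. Rpl39l, Rpl3l and Rpl10l, paralogs known from testis or muscle, were at 1.04, 0.0669 and 0.0212 CPM, the last 2 on 24 and 7 UMIs in all. Rpl22 and its paralog Rpl22l1 were closer, at means of 2502 and 1290 CPM. Rpl22l1 was lowest in the onset library, at 903 CPM, with 1134 CPM in active and 1277 to 1481 CPM in the 6 others. Fau, whose product is cleaved to give RPS30, was at 5473 to 8445 CPM.

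The first comparison asked how CD8 and CD4 T cells of the same library differed. A cell was put in the CD8 gate when it held any Cd8a or Cd8b1 UMI but no Cd4 UMI, and in the CD4 gate for the reverse (22276 and 27505 cells, with 21.4% to 35.1% of T cells in neither gate). Most members were slightly higher in CD8-gated cells: 57 rose and none fell, with a median log2 fold change of 0.11 (fold changes here are from TMM-scaled sums). Across all 11582 features tested, 23.4% were called higher and 23.1% lower, with a median of -9.7e-05. The rises were 36 of 48 in the large and 21 of 31 in the small subunit. Calls are from edgeR's quasi-likelihood test with library as a block, at a Benjamini-Hochberg adjusted p under 0.05.

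Rpl37a, a zinc-finger protein of the large subunit, rose most. Its CPM had a lowest, median and highest of 4046, 4918 and 6249 in CD8-gated and 3323, 4130 and 5183 in CD4-gated cells, and it was higher in CD8-gated cells in 8 of 8 libraries. Its rise on the log2 scale was 0.29 (SE 0.028, adjusted p = 1.9e-08). Among the next were Rpl22l1 (0.22), Rpl37 (0.21), Rps15a (0.21), Rpl32 (0.20), Rps12 (0.19) and Rpl23 (0.17). Toward the other end of those called stood Rpl35 (0.094), Rplp0 (0.092), Rps4x (0.091), Rpl36al (0.084), Rplp2 (0.082), Rpl5 (0.079) and Rpl26 (0.078). The calls of Rpl5, Rpl26 and Rplp2 were each lost in 6 of 8 fits without 1 library, that of Rplp0 in 4, that of Rpl35 in 3 and that of Rps4x in 1. Not past the threshold were Rps29 (-0.065, adjusted p = 0.096), lower in CPM in 8 of 8 libraries, Rps15 (0.011), Rps27 (0.0054), Rpl10 (0.071), Rpl7 (0.047) and Rpl22 (0.013). Among the MDM2 binders named here, a list that may not be complete, Rpl11 (0.14), Rps7 (0.14), Rps3 (0.14) and Rps20 (0.14) rose. So did Rpl5, Rpl23 and Rpl26, and Rps15 did not pass.

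The share of UMIs was higher in CD8-gated cells in 6 of 8 libraries. It was 31.6% to 38.1% in CD8-gated and 32.1% to 35.2% in CD4-gated cells, a mean difference of 1.48 ± 1.45 percentage points (SD, n = 8). The 2 libraries with the reverse order were onset (-0.97 points) and PPCA day 2 (-0.63 points). These 2 also had the most Ccl5-positive cells among CD8-gated cells, 42.6% and 45.8%, against 16.8% to 36.03% in the others. Among cells without a Ccl5 UMI, the share was higher in CD8-gated cells in 8 of 8 libraries, by 2.89 ± 0.99 points, and 78 of 79 members rose, all but Rps29, where 23.4% of all features were called higher and 23.7% lower. Other programmes moved with the difference between the gates: of 13 effector or memory markers 12 were higher in CD8-gated cells, of 7 naive markers 2 were higher and 5 lower, 5 of 6 regulatory T cell markers were lower, and 8 of 8 early response genes were lower. Summed B cell markers (4 genes) were at 11.4 to 27.9 CPM in CD8-gated and 1.77 to 6.92 CPM in CD4-gated cells, higher in 8 of 8 libraries, and 1 of the 2 tested was called higher. Their part in the result was not tested.

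CD8-gated cells were also deeper, with median UMIs per cell of 4277 to 7259 against 3851 to 6155, and depth moved with the result. Among cells of 4000 to 6000 UMIs only (an alternative added after seeing the data), 7 members rose (among them Rpl37a, Rps15a, Rpl37, Rpl32, Rpl18 and Rpl22l1) and 6 fell (Rps29, Rpl29, Rps15, Rpl31, Rps19 and Rpl12), with a median of 0.023. Of the 10325 features tested in those cells, 16.4% were called higher and 16.7% lower. The share of UMIs there differed by 0.096 ± 1.86 points (SD, n = 8) and was higher in CD8-gated cells in 4 of 8 libraries. From 2000 to 3000 UMIs the median share was lower in CD8-gated cells in 6 of 8 libraries, and from 6000 to 8000 UMIs it was higher in 8 of 8. In cells of 4000 to 6000 UMIs without a Ccl5 UMI, 65 rose and none fell, with 16.1% of features called higher, and the share was higher in 8 of 8 libraries by 1.65 ± 1.16 points. Without the library block, 0 of 79 members were called, and 17.2% of all features were.

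**Figure D2:**
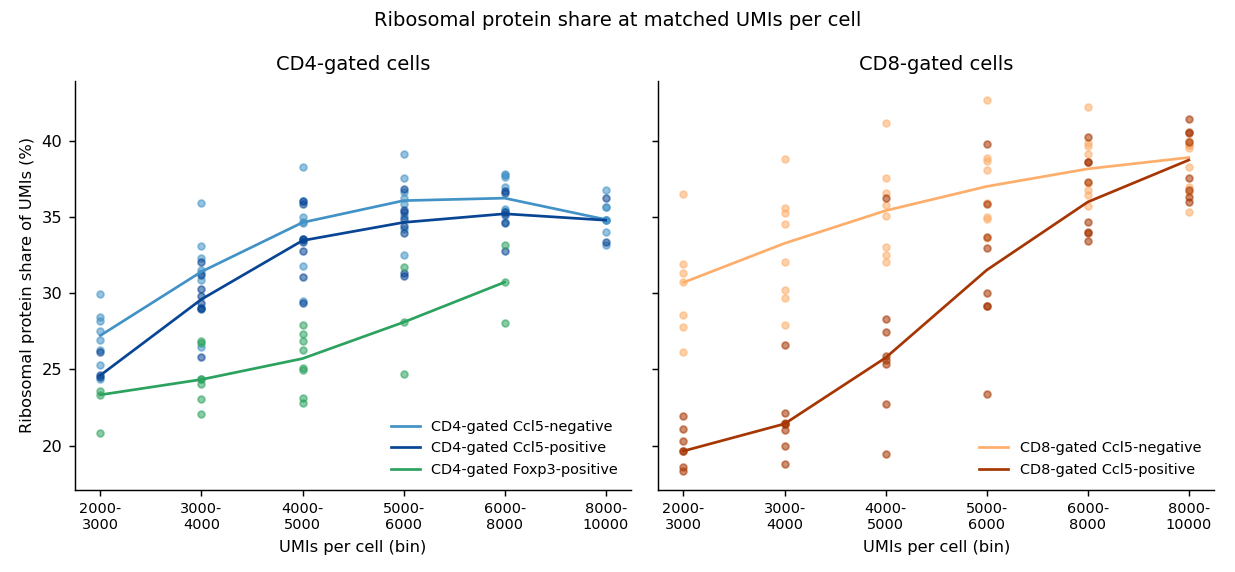
Median over cells of the ribosomal protein share of UMIs (y axis, %, not starting at 0) by UMIs per cell (x axis, bins), with 1 point per library of at least 20 cells and lines through the medians over libraries, for CD4-gated cells (left) and CD8-gated cells (right). Ccl5-positive CD8-gated cells lie lowest among shallow cells, at 19.6% from 2000 to 3000 UMIs, and meet Ccl5-negative cells from 8000 to 10000 UMIs, at 38.7% against 38.9%.

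Within CD4-gated cells, those with a Foxp3 UMI, the transcript of the factor that defines regulatory T cells, held fewer ribosomal protein transcripts. All 79 members fell, with a median log2 fold change of -0.54. Of the 10448 features tested, 15.8% were called lower and 14.9% higher, and the median over all was -0.025. The share of UMIs was 25.0% to 28.8% in the 1130 Foxp3-positive cells and 32.4% to 35.6% in the 26375 Foxp3-negative ones. It was lower in 8 of 8 libraries, with differences from -8.95 to -4.94 percentage points, and the gates did not overlap. The Foxp3-positive gate was small, with 101 to 201 cells per library.

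Rplp1 fell most, from a lowest, median and highest of 6182, 7203 and 8455 CPM in Foxp3-negative to 3881, 4923 and 5682 CPM in Foxp3-positive cells. The ranges did not overlap, and on the log2 scale it fell by 0.80 (SE 0.038, adjusted p = 9.8e-28). Rpl14 fell by 0.79 (SE 0.041, adjusted p = 5.5e-26), and Rps29 by 0.78, from a median of 13606 to 9506 CPM. Rps28 (-0.78), Rps24 (-0.71), Rpl8 (-0.70), Rps20 (-0.70) and Rps16 (-0.69) came next. The smallest declines were those of Rpl24 (-0.21), Rpl41 (-0.33), Rpl37 (-0.33), Rpl7a (-0.34), Rps15a (-0.35), Rpl37a (-0.36), Rpl34 (-0.37) and Rpl27 (-0.38). Rpl24, part of a bridge between the subunits, was at a median of 2488 CPM in Foxp3-positive and 2452 CPM in Foxp3-negative cells, and higher in CPM in 5 of 8 libraries, so its fall depended on the scaling. The MDM2 binders named here fell beside Rps20, Rpl23 by 0.61, Rpl5 by 0.58, Rps7 by 0.56 and Rps3 by 0.55. Rpl26 fell by 0.50, Rps15 by 0.48 and Rpl11 by 0.45. The X-linked Rpl36a (-0.59), Rps4x (-0.57), Rpl10 (-0.55) and Rpl39 (-0.39) fell too.

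With total UMIs in place of TMM, the median of all features moved up by 0.21, and 78 members fell with a median of -0.32, Rpl24 alone giving 0.0085, while 6.39% of all features were called lower and 31.8% higher. Among cells of 4000 to 6000 UMIs all 79 fell, with a median of -0.61, and 10.2% of features were called lower. Naive-cell markers moved with it, 7 of 7 lower. Regulatory T cell markers were 6 of 6 higher, and of 11 effector or memory markers tested 6 were higher and 2 lower. Summed early response genes were higher in Foxp3-positive cells in 8 of 8 libraries, though of these 8 genes 1 was called higher and 2 lower. Summed B cell markers were at 4.25 to 16.4 CPM in Foxp3-positive and 1.60 to 6.58 CPM in Foxp3-negative cells, and 5 myeloid markers at 130.03 to 221 and 112 to 158 CPM, each sum higher in 8 of 8 libraries. The part of these marker differences in the decline was not tested.

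The next comparison was between CD8-gated cells with and without a UMI of Ccl5, the chemokine that marks effector and memory CD8 cells. All 79 members fell in Ccl5-positive cells, with a median log2 fold change of -0.33. Of 10391 features tested, 22.2% were called lower and 19.6% higher, and the median over all was -0.019. The share was lower in 8 of 8 libraries, at 27.8% to 35.4% in 6563 Ccl5-positive and 34.3% to 40.4% in 15713 Ccl5-negative cells, with differences from -7.37 to -2.64 points. In the 13 effector or memory markers all 13 rose, and 6 of 7 naive markers fell. Summed B cell markers were lower in 8 of 8 libraries (8.25 to 23.01 against 13.1 to 30.5 CPM) and myeloid markers higher in 7 of 8 (127 to 190 against 106 to 158 CPM). The part of these marker differences was not tested.

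Rps20, a small subunit head protein that also binds MDM2, fell most. It was at a lowest, median and highest of 4281, 5657 and 6489 CPM in Ccl5-positive and 6438, 7261 and 8737 CPM in Ccl5-negative cells, lower in 8 of 8 libraries, and fell by 0.47 on the log2 scale (SE 0.046, adjusted p = 1.2e-08). Rps19, whose human counterpart is mutated in Diamond-Blackfan anaemia, fell by 0.46, from a median of 6448 to 5058 CPM. Rplp1 (-0.45), Rps28 (-0.44), Rps26 (-0.43), Rpl28 (-0.43), Rpl35 (-0.42) and Rpl10 (-0.41) followed. Rpl27 fell least, by 0.12 (adjusted p = 0.0078). In CPM it was higher in 4 and lower in 4 libraries, with medians of 3020 and 2993 CPM in Ccl5-positive and Ccl5-negative cells. Rpl13a (-0.15), Rpl38 (-0.19), Rpl37a (-0.20), Rpl36al (-0.21), Rps12 (-0.22) and Rpl7a (-0.23) were among the next smallest.

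The difference depended on how deep the cells were. Between 3000 and 4000 UMIs the median share differed by -11.5 points in Ccl5-positive CD8-gated cells and it was lower in 8 of 8 libraries. From 6000 to 8000 UMIs the difference was -2.35 points, and from 8000 to 10000 UMIs it was higher in 5 of 8 libraries. Among cells of 4000 to 6000 UMIs all 79 members fell, with a median of -0.44, where 16% of all features were called lower. Requiring at least 3 Ccl5 UMIs gave a median of -0.52. Without the library block 30 of 79 fell, as did 8.3% of all features. With total UMIs, which moved the median of all features by 0.11, 77 fell, while 11.9% of features were called lower and 34.5% higher.

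CD4-gated cells with a Ccl5 UMI showed a smaller difference in the same direction. Of the 79 members 74 fell and none rose, with a median of -0.13. Of 10678 features tested, 2.52% were called lower and 3.14% higher, and the median over all was -0.010. The share was 30.4% to 33.04% in 3177 Ccl5-positive and 32.3% to 35.5% in 24328 Ccl5-negative cells, lower in 8 of 8 libraries with differences from -3.31 to -0.33 points and overlapping ranges. Of the effector or memory markers 11 of 11 tested were higher, 5 of 7 naive markers were lower and 3 of 6 regulatory T cell markers were higher, and their part in the difference was not tested. Rps20 again fell most, by 0.19 (SE 0.029, adjusted p = 1.5e-05), from a median of 6338 to 5742 CPM. Rps19 (-0.18), Rps28 (-0.17), Rps29 (-0.17), Rpl3 (-0.17), Rpl8 (-0.17), Rpl35a (-0.16) and Rpl21 (-0.16) were next. The smallest falls past the threshold were those of Rpl37a (-0.081), Rpl27 (-0.084), Rpl38 (-0.092), Rpl36al (-0.093), Rpl37 (-0.094), Rps13 (-0.094), Rpl41 (-0.096) and Rps25 (-0.098). The call of Rpl37a was lost in 5 of 8 fits without 1 library, that of Rpl36al in 4, and those of Rpl27 and Rpl38 in 2 each. Those of Rpl37, Rps13, Rpl41 and Rps25 were lost in 1 each. Rpl23a (-0.042), Rps15 (-0.047), Rpl24 (-0.067) and Rpl13a (-0.072) were among those that did not pass the threshold. With at least 3 Ccl5 UMIs, which left 22 to 103 cells per library, all 79 fell, with a median of -0.73, and 12.1% of all features were called lower. Without the library block 0 members were called, and of all features 0% were called lower and 0.637% higher. A single Ccl5 UMI in a CD4-gated cell can come from free RNA, and its part in the small difference was not tested.

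**Figure D3:**
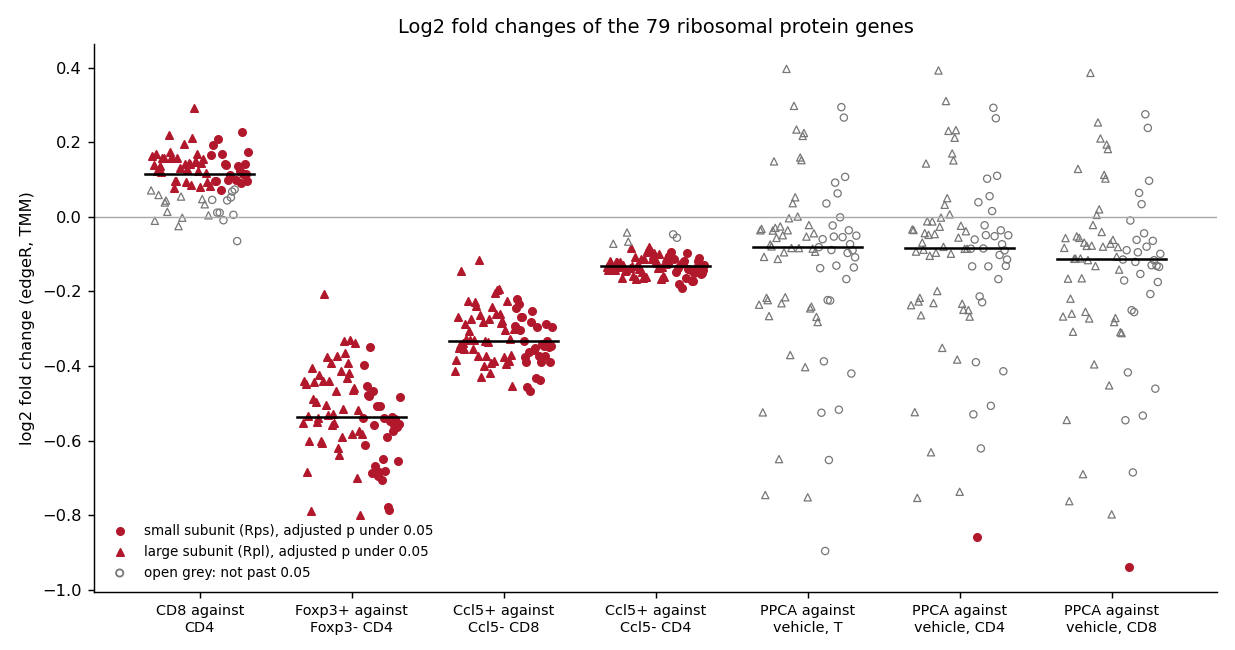
Log2 fold change (y axis) of each of the 79 genes in 7 comparisons (x axis). Circles are small subunit and triangles large subunit genes, filled where the adjusted p was under 0.05, and lines are medians. The median is 0.11 for CD8 against CD4 and -0.54, -0.33 and -0.13 for the Foxp3 and Ccl5 comparisons, while the PPCA comparisons spread from -0.94 to 0.40 with few filled points.

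Other genes of the translation machinery were counted in the same fits. Of 21 translation factors and other TOP-class mRNAs, 19 rose in CD8 against CD4 (median 0.14), among them Rack1, a scaffold of the small subunit, at 0.20 and Eef2 at 0.17. Of these 21, 19 fell in Foxp3-positive (median -0.21), 20 in Ccl5-positive CD8 (-0.24) and 9 in Ccl5-positive CD4 cells (-0.086). Eef1b2, a subunit of the exchange factor of elongation factor 1, fell in all 3, by 0.57, 0.42 and 0.14. Of 20 ribosome biogenesis genes, 10 rose and 1 fell in CD8 cells, led by Nhp2 (0.36), 15 fell in Foxp3-positive and 17 in Ccl5-positive CD8 cells, and 1 (Nop10, -0.13) fell in Ccl5-positive CD4 cells. No gene of these lists was called between PPCA and vehicle by edgeR in any gate. Of 78 mitochondrial ribosomal protein genes, 26 rose and 4 fell in CD8 cells, 2 rose and 23 fell in Foxp3-positive and 6 rose and 25 fell in Ccl5-positive CD8 cells. None of these 78 passed in Ccl5-positive CD4 cells. The shares of all features called, given above for each comparison, are the background to these list counts: 23.4% higher in CD8 cells, 15.8% lower in Foxp3-positive, 22.2% lower in Ccl5-positive CD8 and 2.52% lower in Ccl5-positive CD4 cells.

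Of 10 regulators of TOP mRNA translation, 5 rose and 1 fell in CD8 cells, 1 rose and 2 fell in Foxp3-positive, 1 rose and 4 fell in Ccl5-positive CD8 and none was called in Ccl5-positive CD4 cells. The share of all features called was 23.4% higher and 23.1% lower in CD8, 14.9% and 15.8% in Foxp3-positive and 19.6% and 22.2% in Ccl5-positive CD8 cells. In CD8 cells the regulators called included Myc, a driver of ribosome production, at 0.54, Eif4ebp1, an mTOR-controlled translation inhibitor, at 0.41 and Larp1 at 0.18. In Foxp3-positive cells Eif4ebp1 rose by 0.80 (adjusted p = 3.1e-04) while Myc (-0.25) and Eif4ebp2 (-0.18) fell. In Ccl5-positive CD8 cells Rptor, of the mTOR complex, rose by 0.43, and Myc (-0.38), Larp4 (-0.37) and Larp1 (-0.19) were among 4 that fell.

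In the authors' deposited table of cluster markers, 20 members were listed, 19 for the cluster named CD8 TCM and 1 (Rps29) for CD4 Naive. The CD8 TCM cluster had 88 genes in all, led among members by Rpl37a at a log2 fold change of 0.33, Rpl22l1 and Rps20 at 0.32 each and Rps18 at 0.31. Rps29 had 0.26 in CD4 Naive. No member was listed for CD4 Treg (567 genes) or CD8 TRM TEM (702 genes). The authors' deposited table holds only positive log2 fold changes, of at least 0.25, so falls do not appear in it.

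Between libraries, 1 pattern took most of the variation of the 79 genes, shown in the heat map of levels. A first axis of log2 CPM held 79.4% of their variance. The active library was at 2.57 and vehicle day 3 at 2.11 on it, PPCA day 2 at -2.04 and PPCA day 4 at -2.36, with onset (0.65), vehicle day 2 (-0.20), vehicle day 4 (-0.29) and PPCA day 3 (-0.44) between them. Most members varied little: the median SD of log2 CPM was 0.13, against 0.19 for the 266 other features of at least 300 CPM. A few ranged over more than 2-fold between libraries.

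**Figure D4:**
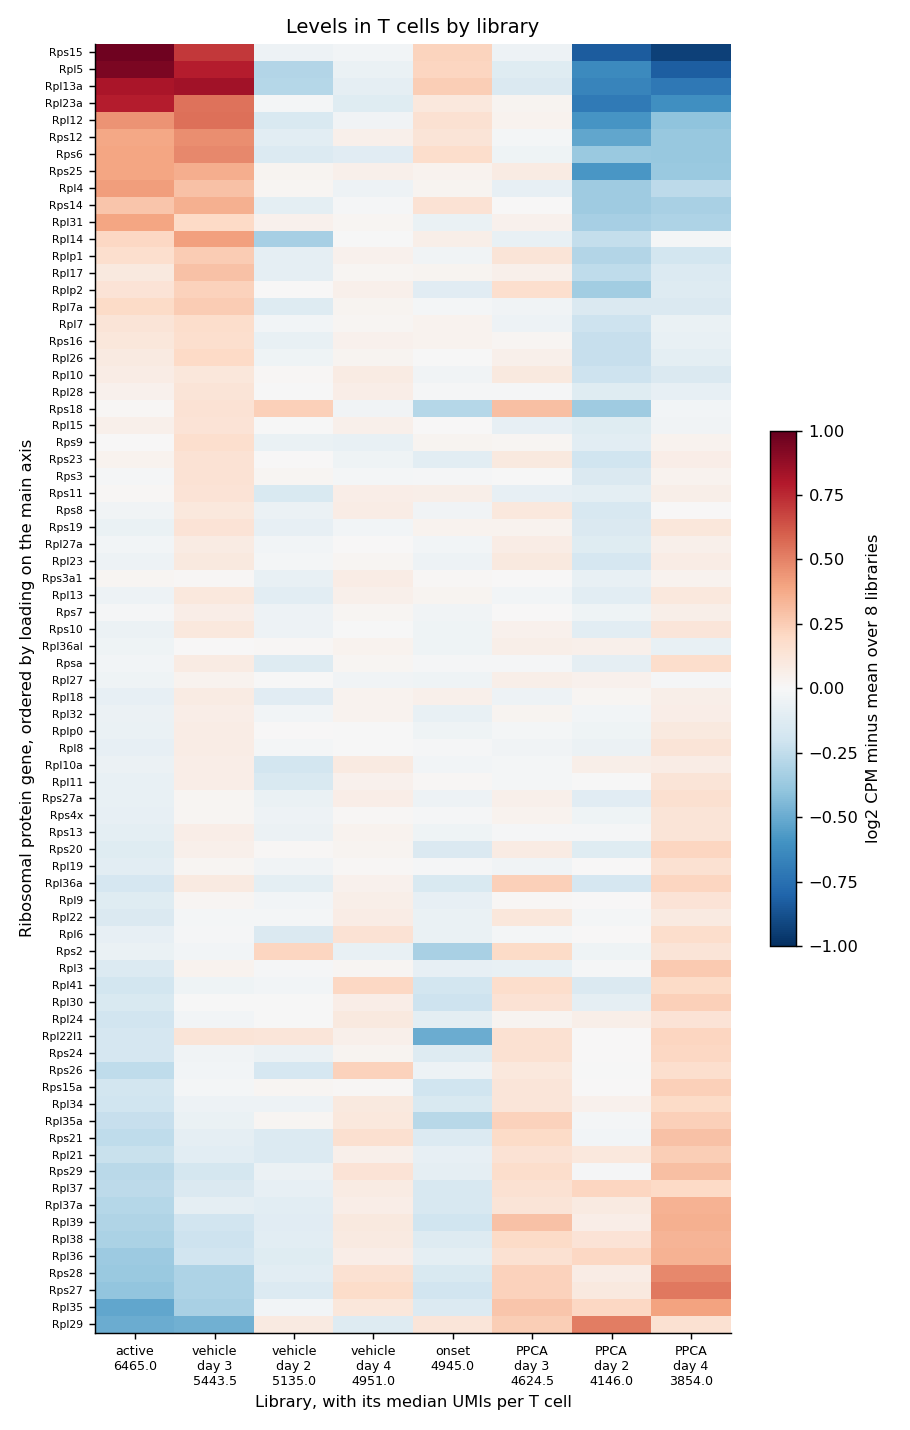
Log2 CPM of 76 of the genes (rows) in T cells of the 8 libraries (columns, in order of median UMIs per T cell, printed under each), minus each gene's mean, as colour. Rps15 at the top runs from 4230 CPM in the active to 1130 CPM in the PPCA day 4 library, and Rps27 near the bottom from 7615 to 14466 CPM.

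Rps15, a small subunit head protein that also binds MDM2, varied most. It was at 4230 CPM in active, 2520 CPM in onset, 2081, 3519 and 2121 CPM in vehicle on days 2, 3 and 4, and 1216, 2082 and 1130 CPM in PPCA. The active library was 3.74-fold above PPCA day 4, and PPCA was below vehicle on each day, although PPCA day 3 reached the level of vehicle day 2. Rpl5, which binds 5S ribosomal RNA with RPL11, was at 3669 CPM in active, 2219 CPM in onset, 1558, 3301 and 1826 CPM in vehicle and 1228, 1756 and 1082 CPM in PPCA. Its range was 3.39-fold. Rpl13a, which can leave the ribosome to silence transcripts after interferon-γ, ranged 2.94-fold, with 6430 CPM in vehicle day 3 and 6322 CPM in active at the top and 2188 CPM in PPCA day 4 at the bottom.

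Rpl23a (2.83-fold), Rpl12 (2.21-fold) and Rps12 (1.98-fold) had their ends among the same 4 libraries. In all, 28 members were highest in the active or vehicle day 3 library and lowest in PPCA day 2 or day 4. The reverse was counted more narrowly: 20 members were highest in PPCA day 4 and lowest in active. The 2 counts therefore cannot be compared. These 4 libraries are the ends of the axis of these same genes, and neither count was made over all features. Rps27 was at 7615 CPM in active, 8773 CPM in onset, 9103, 8096 and 11361 CPM in vehicle and 10709, 11791 and 14466 CPM in PPCA. Rps28 was at 5323 CPM in active and 9641 CPM in PPCA day 4, and Rpl35 at 1981 and 3753 CPM. Rpl29, the least abundant member, ran from 340 CPM in active to 684 CPM in PPCA day 2.

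The steadiest members were Rpl27 (2836 to 3041 CPM, 1.07-fold), Rps7 (5209 to 5660 CPM), Rpl36al (841 to 922 CPM), Rps3a1 (5135 to 5681 CPM) and Rpl32 (5525 to 6086 CPM). Apart from Rps15 and Rpl5, the other MDM2 binders named here also stayed within 1.35-fold. These were Rpl11 (3420 to 4153 CPM), Rps3 (4346 to 5301 CPM), Rpl23 (5757 to 6929 CPM), Rpl26 (3114 to 4195 CPM) and Rps20 (5771 to 7426 CPM). The X-linked Rps4x was at 4672 to 5409 CPM, Rpl10 at 1898 to 2374, Rpl36a at 1875 to 2494 and Rpl39 at 4709 to 7415 CPM. Rack1 ran from 1671 CPM in PPCA day 4 to 3159 CPM in vehicle day 3.

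The order of the libraries on this axis followed their depth at the ends: active had the most UMIs per cell (6465), vehicle day 3 the next (5444), and PPCA day 2 (4146) and PPCA day 4 (3854) the fewest. In T cells of 4000 to 6000 UMIs only, the axis was still there, with 76.8% of the variance and scores of 2.79 in active, 1.81 in vehicle day 3, -1.69 in PPCA day 2 and -2.53 in PPCA day 4. Rps15 was at 3958 CPM in active and 1200 CPM in PPCA day 4 in those cells. In them 32 members ranged over 1.5-fold between libraries, against 23 in all T cells. Depth was closer there but not equal, with median UMIs per cell of 5207 in active, 5048 in vehicle day 3, 4720 in PPCA day 2 and 4654 in PPCA day 4. Summed effector or memory markers (13 genes) in T cells were highest at the low end of the axis, at 3417 CPM in PPCA day 2 and 3224 CPM in PPCA day 4, with 1756 CPM in active, 1529 CPM in vehicle day 3 and 1471 to 2502 CPM in the others. Regulatory T cell markers (6 genes) were at 369.95 and 367 CPM in PPCA day 2 and day 4 and 181 to 256 CPM in the others. The part of depth and of these markers in the axis was not tested. Across the 79 genes the loading on the axis had a Spearman correlation of 0.19 with transcript length and 0.022 with GC content, as descriptions.

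**Figure D5:**
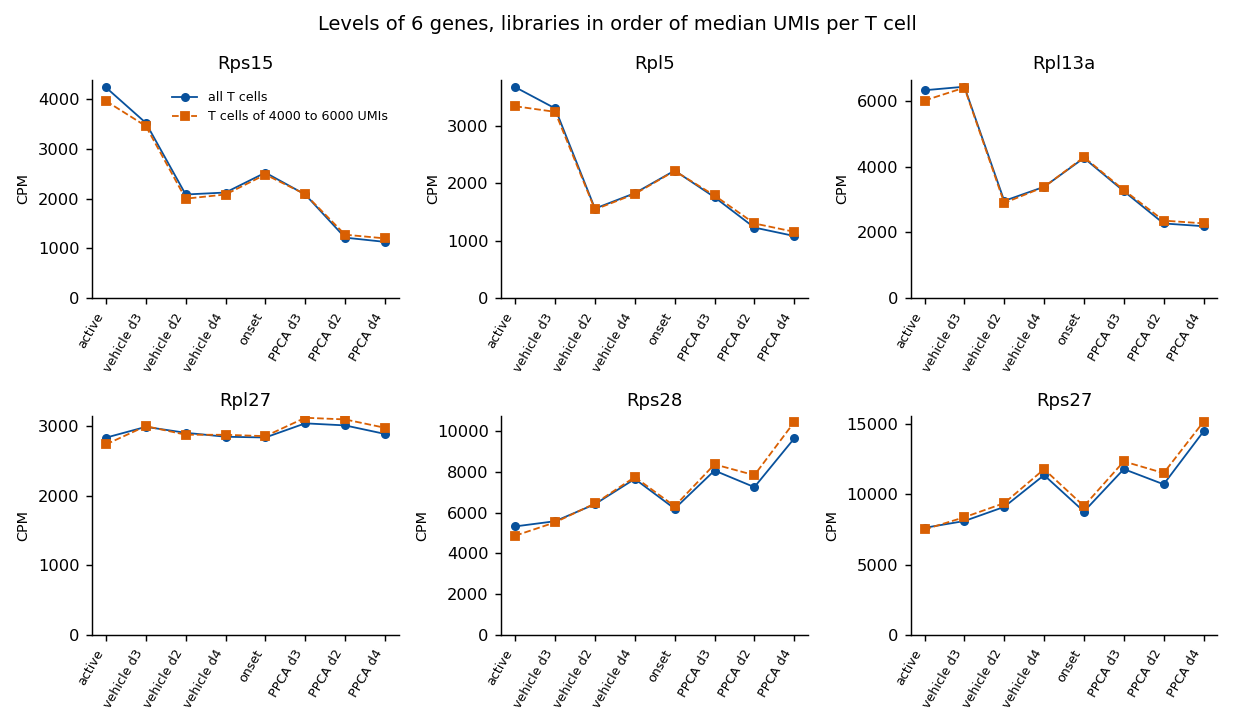
CPM (y axis, from 0) of 6 genes by library (x axis, from the highest to the lowest median UMIs per T cell), in all T cells (circles) and in T cells of 4000 to 6000 UMIs (squares). Rps15, Rpl5 and Rpl13a are highest in active and vehicle day 3 and lowest in PPCA day 2 and day 4, Rpl27 stays within 2836 to 3041 CPM in all T cells, and Rps28 and Rps27 are highest in PPCA day 4, with both sets of cells close together.

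PPCA was then compared with vehicle over the 3 days, with harvest day as a block. Few members passed the test. In T cells 0 of 79 were called by edgeR, as were 0% of the 13241 features tested. DESeq2 called 11 members and 0.514% of features, and limma-voom 0 members and 0% of features. In edgeR 28 of 79 had an unadjusted p under 0.05, as had 7.9% of all features tested. In CD4-gated cells 1 member, Rps15, fell, and 0.00862% of features were called lower and as many higher. In CD8-gated cells Rps15 was also the only member called lower, and 0.00859% of features were. Rps15 fell by 0.86 in CD4-gated (SE 0.094, adjusted p = 0.0499) and by 0.94 in CD8-gated cells (SE 0.096, adjusted p = 0.031), and was -0.90 in T cells (SE 0.093, adjusted p = 0.086). It was lower on 3 of 3 days in each gate.

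The next members with low values were also among the 8 with the largest spread between libraries. In T cells the log2 fold changes were -0.75 for Rpl5 (SE 0.14, adjusted p = 0.25), -0.75 for Rpl13a (0.31) and -0.65 for Rpl23a (0.15), with adjusted p in parentheses. Each was lower in PPCA on 3 of 3 days. At the other end were Rpl29 at 0.40 (adjusted p = 0.44), Rpl35 at 0.30, Rps27 at 0.29, Rps28 at 0.27 and Rpl36 at 0.23, each higher on 3 of 3 days. Among the MDM2 binders named here beside Rpl5 and Rps15, Rpl26 was at -0.23, Rps3 at -0.17 and Rpl23 at -0.11. Rps7 was at -0.089, Rps20 at -0.053 and Rpl11 at -0.032. The X-linked genes did not pass either, with Rpl39 at 0.22, Rpl36a at 0.00068, Rps4x at -0.036 and Rpl10 at -0.24. The median over members was -0.081, but it depended on the fit, at 4.6e-05 with total UMIs, 0.028 in cells of 4000 to 6000 UMIs, -0.013 without day 3 and -0.58 with median UMIs per cell as a factor. Summed effector or memory markers were higher in PPCA than in vehicle on 3 of 3 days, at 3417 against 2321, 1632 against 1529 and 3224 against 1471 CPM on days 2, 3 and 4. Summed regulatory T cell markers were too, at 369.95 against 256, 245 against 242 and 367 against 224 CPM. The part of both marker sets in these differences was not tested.

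The arms did not overlap for 11 members in T cells. The 3 PPCA libraries all exceeded the 3 vehicle libraries for 7 (Rpl21, Rpl29, Rpl35, Rpl36, Rpl37, Rpl37a and Rpl38), which 3.16% of all features tested did. They all lay below for 4 (Rpl4, Rpl7, Rpl15 and Rpl28), which 1.03% of features did. Rps15 was not among these 4, since PPCA day 3 (2081.5 CPM) stood just above vehicle day 2 (2081.4 CPM). In CD4-gated cells 10 members were all above and 4 all below, against 3.51% and 1.29% of features, and in CD8-gated cells 4 and 5, against 3.13% and 1.06%.

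The count of calls depended on the fit. DESeq2 called 11 members in T cells, 8 in CD4-gated and 11 in CD8-gated cells, all lower, with Rps15, Rpl5, Rpl13a, Rpl23a, Rpl12, Rps12 and Rps25 among them in each gate. It called 0.264%, 0.155% and 0.215% of all features lower. By limma-voom 0, 0 and 1 members were called, and 0%, 0% and 0.0172% of all features. With Xist status as a further factor edgeR called 4, 8 and 13 members, and 0.582%, 1.03% and 2.27% of all features. With median UMIs per cell as a further factor (added after seeing the data) it called 0, 0 and 0, and 0.00755%, 0% and 0% of features. With so few libraries, a further factor leaves almost nothing to estimate the error from, as does leaving out a day. Counts from these fits are weak and do not measure what Xist status or depth does. Without the pair of libraries from day 2, or that from day 3, none was called in any of the 3 gates. Of all features, 0% were called without day 2, and 0.00745%, 0.017% and 0% without day 3. Without the day 4 pair 3, 1 and 10 members were called, with Rps15 among them, against 0.443%, 0.377% and 1.68% of features. Over the fits without 1 day Rps15 was at -0.93 to -0.87 in T cells. It was at -0.91 to -0.81 in CD4-gated and -0.95 to -0.92 in CD8-gated cells. In cells of 4000 to 6000 UMIs Rps15 was called in T cells (adjusted p = 0.039) and in CD8-gated cells (adjusted p = 0.015), and its call in CD4-gated cells was lost (adjusted p = 0.11). Xist status differed between the arms in both directions: the PPCA library alone was high on day 2, neither on day 3 and the vehicle library alone on day 4. On each day the PPCA library had fewer UMIs per cell than the vehicle library, so depth and treatment cannot be told apart.

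The difference between PPCA and vehicle was tested for a dependence on the gate. No member was called in either direction, against 0.00821% of 12177 features called lower and 0% higher. The differences, CD8 minus CD4, ran from -0.085 for Rps15 (SE 0.059) to 0.012 for Rpl36al, 0 members had an unadjusted p under 0.05, and DESeq2 and limma-voom also called 0.

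Active and onset diabetes had 1 library each, so their difference has no replicate check and no test. Of the 79 members, 4 were at least 1.5-fold higher in the active library, among them Rps15 (1.68-fold), Rpl5 (1.65-fold) and Rpl23a (1.605-fold), as were 9.18% of all features tested. Rpl13a lay just below that fold, at 1.48-fold (6322 against 4263 CPM). Rpl29 was the only member at least 1.5-fold lower, at 0.654 of its onset level, as were 5.34% of features. Rpl35 (0.768), Rpl36 (0.836), Rps28 (0.860) and Rps27 (0.868) were the next lowest ratios. In CD4-gated and CD8-gated cells alone Rps15 had log2 ratios of 0.70 and 0.84. The median log2 ratio of the 79 members was -0.0020, with 37 higher and 42 lower in active, and that of all features 0.027. The 2 libraries also differed in depth (6465 against 4945 UMIs per T cell), which cannot be told apart from disease stage.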

How the data were processed

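The deposited matrices hold whole UMI counts for each gene in each barcode, made with Cell Ranger 6.0.0 per the file headers (6.1.2 per the submitters' processing notes, which also name Seurat). As for the genome build, it is not given in the sources used here. In the authors' deposited marker table are log2 fold changes and p-values for 7 clusters, of which only the entries for members were copied. Members and lists were chosen with earlier results of these data known.

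Cells were kept with at least 500 genes and under 10% mitochondrial UMIs. The top 0.8% of barcodes per 1000 by Scrublet score (scanpy 1.11.5) were removed as doublets, since the caller's own threshold marked 0 to 6 cells in 7 libraries and 1223 in PPCA day 4. A T cell was a cell with 2 or more UMIs summed over Trac, Trbc1, Trbc2, Cd3d, Cd3e and Cd3g. Counts were summed per library and gate and fitted across all features with edgeR 4.0.16 (R 4.3.3), with TMM scaling, filterByExpr, robust quasi-likelihood tests and Benjamini-Hochberg adjustment at 0.05. Library was the block within libraries and harvest day between treatments, over the 6 treated libraries. The day pairs vehicle and PPCA: deviations from the arm means correlated at 0.37, 0.38 and 0.53 in T cells for days 2, 3 and 4, and at 0.33 to 0.54 over all gates. The fits were tested on simulated data, drawn with the same spread for every gene. Of simulated 1.25-fold, 1.5-fold and 2-fold changes, 1.67%, 50% and 100% were recovered for PPCA against vehicle in T cells. For the CD8 minus CD4 difference these were 2.86%, 12.1% and 65.6%. Small changes can therefore go uncalled in these fits. CPM are per 1000000 UMIs of the gate. Named in each within-library comparison were the 8 highest and 8 lowest log2 fold changes among those called, for levels the 6 most and 6 least abundant, for spread the 8 largest and 5 smallest SDs, for treatment the members called and the 5 highest and lowest, and MDM2 binders, X-linked genes and paralogs in any case. A few genes that this rule takes are not reported here. Alternatives were other scalings, no low-count filter, DESeq2 1.42.0, limma-voom (3.58.1), no replicate block, looser cell filters and doublets kept. Others were thinning to 2000 UMIs, with gates set again on the thinned counts, stricter gates, leaving out libraries and Xist status. Matched depth and depth as a factor were added after seeing the data.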

Additional observations from a re-analysis of the deposited data

Results flagged for a closer look

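Of 77 values tested over the 8 libraries, 5 had 1 library far from the others, and chance alone gives about 1 in 20. The vehicle day 4 library had the lowest log2 ratio of CPM between Foxp3-positive and Foxp3-negative cells for Rpl34 (-0.28, the others -0.17 to -0.12) and for Rpl37a (-0.31, the others -0.19 to -0.096). Its Foxp3-positive gate held 101 cells, the fewest of any library. Between Ccl5-positive and Ccl5-negative CD4-gated cells, PPCA day 3 stood apart for Rpl36al (-0.17, the others -0.052 to 0.014). In that comparison the active library stood apart for Rpl38 (0.033, the others -0.067 to -0.023) and Rps13 (0.018, the others -0.063 to -0.026).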

How the results depend on the processing

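The medians of the Foxp3, Ccl5 and CD8 against CD4 comparisons kept their sign under the alternatives run, but calls for CD8 against CD4 did not all stay in one direction: 13 members were called at 4000 to 6000 UMIs, 7 higher and 6 lower, with a median log2 fold change of 0.023, against 0.21 without Ccl5-positive cells, and with total UMIs 48 were higher and 3 lower, beside 17.4% and 30% of all features. At that depth the sign turned for 26 of 79 members, 9 of them called in all cells, among these Rpl35 (-0.0075), Rpl5 (-0.021), Rplp0 (-0.045), Rplp2 (-0.028), Rps4x (-0.0064) and Rps20 (-0.0079), and Rps15, not called in all cells, was lower (-0.13). For Foxp3, the median was -0.32 with total UMIs, -0.72 in cells thinned to 2000 UMIs, -0.61 at 4000 to 6000 UMIs and -0.66 with at least 2 Foxp3 UMIs, and Rpl24 turned to 0.0085 with total UMIs. For Ccl5 in CD8 cells, the median was -0.22 with total UMIs, -0.58 thinned, -0.44 at 4000 to 6000 UMIs and -0.52 with at least 3 Ccl5 UMIs. For Ccl5 in CD4 cells, it was -0.074 with total UMIs, -0.18 without the low-count filter, -0.23 thinned and -0.73 with at least 3 Ccl5 UMIs. The thinned shares were 24.1%, 27.5% and 29.6% in Foxp3-positive, Ccl5-positive CD8 and Ccl5-positive CD4 cells. Gates were set again on the thinned counts, so a positive cell had to keep its Foxp3 or Ccl5 UMI. Thinned values thus come from a stricter gate as well as from equal depth. Leaving out 1 library gave 49 to 67, 79, 79 and 63 to 75 calls in these 4 comparisons, beside 42.7% to 45%, 27.3% to 29.9%, 37.8% to 40.5% and 4.36% to 5.84% of all features.

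Calls in the treatment comparison depended on the processing. In T cells 1 member was called with total UMIs, 1 with the UMIs of other features as the scale, 8 without the low-count filter, 11 by DESeq2, 1 thinned, 1 at 4000 to 6000 UMIs, 4 with Xist status and 0 to 3 without 1 day. Of all features, 0.0831%, 0.00757%, 0.469%, 0.514%, 0.0167%, 0.0676% and 0.582% were called under these settings in turn, and 0% to 0.443% without 1 day. In CD4-gated cells 10 were called without the filter, 8 by DESeq2, 0 by limma-voom, 0 with doublets kept, 3 thinned, 0 at 4000 to 6000 UMIs, 8 with Xist status, 0 with median UMIs as a factor and 0 to 1 without 1 day, beside 0.566%, 0.284%, 0%, 0%, 0.102%, 0.00945%, 1.03%, 0% and 0% to 0.377% of all features. In CD8-gated cells these were 13 without the filter, 11 by DESeq2, 8 thinned, 13 with Xist status, 5 with total UMIs, 5 with the UMIs of other features, 0 with median UMIs and 0 to 10 without 1 day, beside 0.782%, 0.344%, 0.296%, 2.27%, 0.198%, 0.181%, 0% and 0% to 1.68% of all features. Over T cells, the CD4 gate and the CD8 gate, in that order, the median log2 fold change was 4.6e-05, -0.0024 and -0.025 with total UMIs, and 0.0038, 0.0019 and -0.034 with the UMIs of other features. It was 0.028, 0.0043 and 0.052 at 4000 to 6000 UMIs, and -0.58, -0.54 and -0.63 with median UMIs as a factor. Without 1 day it ran from -0.15 to -0.013, from -0.12 to -0.0057 and from -0.21 to -0.056. The median CD8 minus CD4 difference was 0.046 at 4000 to 6000 UMIs and -0.077 to 0.015 without 1 day. Fits with a further factor or without 1 day leave almost nothing to estimate the error from, so their counts are weak. Apart from the smaller samples that thinning and leaving out make, the cause of these shifts was not tested.

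Without the replicate block (library or day), 0 members were called for CD8 against CD4, 30 for Ccl5 in CD8 and 0 for Ccl5 in CD4. For PPCA in CD4-gated and CD8-gated cells 0 were called, where the pairing by day gave 1 each. Of all features, 17.2%, 18.9%, 0.637%, 0% and 0% were called in these 5 fits in turn. Gates of few cells limit the precision: 101 to 201 cells per library with a Foxp3 UMI, and 22 to 103 CD4-gated cells with at least 3 Ccl5 UMIs.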

Other observations

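The balance between subunits varied with the gate. The ratio of small to large subunit UMIs was 0.925 to 0.988 in T cells over the 8 libraries. It was 0.872 to 0.919 in Foxp3-positive and 0.933 to 0.995 in Foxp3-negative CD4-gated cells, without overlap. In Ccl5-positive CD8-gated cells it was 0.908 to 0.961, and 0.920 to 0.987 in Ccl5-negative ones. These ranges overlapped, but within each library the Ccl5-positive cells had the lower ratio, in 8 of 8 libraries. CD8-gated cells (0.920 to 0.979) were below CD4-gated cells (0.930 to 0.992) in 8 of 8 libraries.

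Cells of 1 gate differed widely in the active library: the lower and upper quartiles of the share were 20.8% and 37.4% in Ccl5-positive and 32.4% and 38.7% in Ccl5-negative CD8-gated cells. In PPCA day 4 these were 22.8% and 39.2% against 37.0% and 43.7%.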
